A study of Rattus norvegicus with 18 samples.

Results

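RNA from the cerebral cortex of rats taken 7 days after subarachnoid haemorrhage (SAH 7d) was compared with RNA from sham-operated rats, over all genes with enough counts. The comparison holds 12 of the 18 samples of the series, 6 SAH 7d and 6 sham, with 1 library per rat, and it tested 17760 of the 30735 genes in the count table. The rats were Sprague Dawley rats, an outbred stock, aged 8 to 10 weeks, and no source used here states their sex. In the SAH 7d group a vessel was perforated from inside by a filament, so that blood entered the space around the brain, and sham rats were operated in the same way but the vessel was left intact. No source used here gives the day on which the sham rats were sampled, and the labels and the study's methods differ on whether the tissue was the cortex of 1 side or of both. The samples were bulk tissue, so more cells of a type and more RNA per cell cannot be told apart.

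In the days after SAH, blood and its breakdown products meet microglia, the resident macrophages of the brain, and astrocytes, and both cell types change their gene expression. Activated microglia can display peptides on MHC class II molecules, make complement proteins and expand their lysosomes, while reactive astrocytes make more of the filament proteins GFAP and vimentin. MHC class II genes share a promoter module with a Y box, the sequence TGATTGG or its near variants, at which the factor NF-Y binds, and the coactivator CIITA switches the module on. The brain makes most of its cholesterol itself, through a chain of enzymes whose genes answer together to the sterol-sensing factor SREBP2.

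One library, SAH 7d-5, stood apart from all others, so the comparison was read from ranks. A gene is called separated here when all 6 SAH 7d libraries lay above, or all below, every sham library, and mostly separated when 5 of the 6 did. Each gene's size is given as the ratio of the group medians of CPM, which are counts scaled to 1000000 per library with TMM factors, with 0.1 CPM added to both, so a single library cannot set it. The median Spearman correlation of SAH 7d-5 with its own group was 0.892, against 0.981 to 0.985 for the other 5. SAH 7d-4 lay at the other end, with a median correlation of 0.989 with the sham libraries and 0.983 with its own group. Total counts were 27641629 to 33325330 per sham library and 28867675 to 33107697 per SAH 7d library, and the mitochondrial share of counts was 9.57% to 19.4% and 6.65% to 13.1%. The highest share was in sham-1 and the lowest in SAH 7d-5, and the part of these shares in the results was not tested.

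Separated genes were mostly higher at 7 days. Of the 17760 genes, 142 (0.8%) were separated and higher in SAH 7d and 78 (0.439%) were separated and lower. With the mostly separated genes the counts were 614 (3.46%) higher and 399 (2.25%) lower. Among the 142 the median log2 ratio was 0.63 and 52 differed at least 2-fold, whereas among the 78 lower genes it was -0.34 and 4 did. The higher share of the separated genes was 64.5% with TMM factors and 86.2% on the FPKM scale of the authors, where 250 genes were separated and higher and 40 separated and lower. Loci outside the annotation made up 15.7% of the genes tested, 1.41% of the separated higher genes (2 of 142) and 29.5% of the separated lower genes (23 of 78).

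The tests across all genes gave different counts. The edgeR quasi-likelihood test called 0 genes (0.0%) at an adjusted p under 0.05, with 2076 genes (11.7%) higher and 655 (3.69%) lower at an unadjusted p under 0.05. The DESeq2 Wald test called 388 genes higher (2.24%) and 55 lower (0.318%), and without SAH 7d-5 it called 426 higher (2.55%) and 113 lower (0.676%). The exact two-sided rank-sum permutation test called 0 genes after adjustment, with 2537 genes at an unadjusted p under 0.05. Its smallest possible p is 0.00216, which every separated gene has, and the smallest adjusted p was 0.175. The adjusted p-values below come from edgeR on all 12 libraries unless another fit is named with the value. The DESeq2 fit without SAH 7d-5 was chosen after the data were seen. For genes named because of their separation or small p in these same libraries, the p-values are no independent evidence.

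The SAH 7d libraries did not share the change to the same degree. The median log2 ratio of the 142 separated higher genes to their sham median was 2.17 in SAH 7d-5, 0.86 in SAH 7d-2 and 0.39 to 0.58 in the other 4 libraries, with the lowest value in SAH 7d-4. SAH 7d-5 was the highest library for 125 of the 142. Among the 472 genes that 5 of 6 libraries held above sham, the library that overlapped sham was SAH 7d-4 for 279 genes and SAH 7d-5 for 15. Among the 321 genes with 5 of 6 below sham, it was SAH 7d-4 for 113 and SAH 7d-5 for 17. SAH 7d-4 was thus the library that most often overlapped sham in both directions.

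The median of the MHC class II genes was above sham in every SAH 7d library, and RT1-Ba had the largest ratio of medians of all separated genes. Of the 9 list members tested, 6 were separated and higher (against 0.8% of all genes) and 7 were separated or mostly separated (3.46%), and the list's median log2 ratio was 3.63, against -0.01 over all genes. The promoters of 4 of the 6 separated members are shown for a sequence that they share, and its part in the change was not tested. The 150 bases before each start site are given 5' to 3', from RefSeq on GRCr8, with the Y box TGATTGG in capitals:
RT1-Ba, chr20:4576907-4577056 (+ strand): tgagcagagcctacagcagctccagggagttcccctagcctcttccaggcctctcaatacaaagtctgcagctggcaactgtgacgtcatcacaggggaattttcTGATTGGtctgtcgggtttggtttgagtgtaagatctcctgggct
RT1-Bb, chr20:4604119-4604268 (- strand): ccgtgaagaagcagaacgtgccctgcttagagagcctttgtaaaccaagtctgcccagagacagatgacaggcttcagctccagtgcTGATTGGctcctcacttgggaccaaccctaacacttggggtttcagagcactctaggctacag
RT1-Da, chr20:4515265-4515414 (+ strand): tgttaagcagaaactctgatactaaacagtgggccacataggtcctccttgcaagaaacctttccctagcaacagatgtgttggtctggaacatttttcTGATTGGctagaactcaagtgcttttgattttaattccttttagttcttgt
RT1-Db1, chr20:4560163-4560312 (- strand): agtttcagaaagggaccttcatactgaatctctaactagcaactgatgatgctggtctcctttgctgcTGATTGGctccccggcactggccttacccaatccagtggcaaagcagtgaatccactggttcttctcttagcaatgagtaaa

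Symbols of 10 of the 12 listed class II genes matched an entry in the promoter table. TGATTGG, searched on both strands of the 250 bases before the start, occurred in 9 of these 10 promoters and in 6.42% of all 33469, and it lay 45 to 119 bases before the start, on the strand of the gene, in all 9. CCAAT, which lies within the reverse complement of TGATTGG, occurred in all 10 and in 34.0% of all promoters, and Cd74, the 1 promoter without TGATTGG, holds it on the strand of the gene, 189 bases before the start. The 9 also hold RT1-DOb, whose groups overlapped, and RT1-Db2, RT1-DOa and RT1-Ha, which did not pass the count filter. A match of letters is a description of the sequence and not evidence of binding in these rats.

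Cd74, the invariant chain that escorts class II molecules through the cell, ranged from 7.48 to 16.3 CPM in sham (median 13.4) and from 33.8 to 351 CPM in SAH 7d (median 167). The lowest SAH 7d library was SAH 7d-4, the highest was SAH 7d-2, and SAH 7d-5 held 129 CPM, inside the range of the others. The medians differed 12.4-fold, and the edgeR log2 fold change of Cd74 was 3.75 ± 0.52 (SE, adjusted p = 0.128), the smallest adjusted p of the comparison. RT1-Da, an alpha chain, ranged from 2.53 to 6.67 CPM in sham (median 4.96) and from 12.4 to 138 CPM in SAH 7d (median 63.1), and its adjusted p in edgeR was also 0.128. DESeq2 without SAH 7d-5 gave an adjusted p of 4.84e-08 for Cd74 and 1.21e-06 for RT1-Da, and edgeR without that library gave 0.0936 for each. The edgeR fit of all 18 libraries called Cd74 (adjusted p = 0.00283), RT1-Da, RT1-Ba, RT1-Bb, RT1-Db1, C3, Gfap and Havcr2 higher. It called NewGene_13748, a locus outside the annotation, lower (log2 fold change -1.38, adjusted p = 0.024). The edgeR fit without SAH 7d-4 called Cd74 (adjusted p = 0.0133), RT1-Da, RT1-Db1, C3, Gfap and Tagap higher.

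The other classical chains were separated as well. RT1-Ba, an alpha chain, ranged from 0.809 to 5.55 CPM in sham (median 1.36) and from 7.80 to 93.3 CPM in SAH 7d (median 37.2), a 25.6-fold difference of medians. RT1-Db1, a beta chain, ranged from 0.583 to 3.59 CPM in sham (median 1.26) and from 4.29 to 41.9 CPM in SAH 7d (median 28.0), which is 20.7-fold. RT1-Bb, also a beta chain, ranged from 0.487 to 3.20 CPM (median 1.05) and from 5.96 to 26.5 CPM (median 15.3), which is 13.4-fold. In RT1-Ba and RT1-Db1 the sham libraries 2 and 4 were the highest of their group and SAH 7d-4 the lowest of its own, so the narrowest gaps lay between these libraries. RT1-Db1 has the related copy RT1-Db2, and how the authors' counting split reads between copies of this family is not given, so the value of 1 copy is uncertain, whereas Cd74 lies outside the family. RT1 genes are polymorphic, and the part of allele differences between these outbred rats was not tested.

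Ciita, the coactivator of these promoters, was separated at a low level. It ranged from 0 to 0.325 CPM in sham (median 0.212) and from 0.435 to 3.54 CPM in SAH 7d (median 1.41), and the DESeq2 adjusted p without SAH 7d-5 was 0.001. The peptide-loading chains RT1-DMa and RT1-DMb differed less. RT1-DMa had medians of 8.4 CPM in sham and 15.2 CPM in SAH 7d and was mostly separated, while RT1-DMb had medians of 6.93 and 20.5 CPM with 2 SAH 7d libraries inside the sham range. RT1-DOb, which tempers peptide loading, ranged from 0.324 to 0.811 CPM in sham and from 0.234 to 2.86 CPM in SAH 7d, so its groups overlapped (edgeR adjusted p = 0.314).

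**Figure D1:**
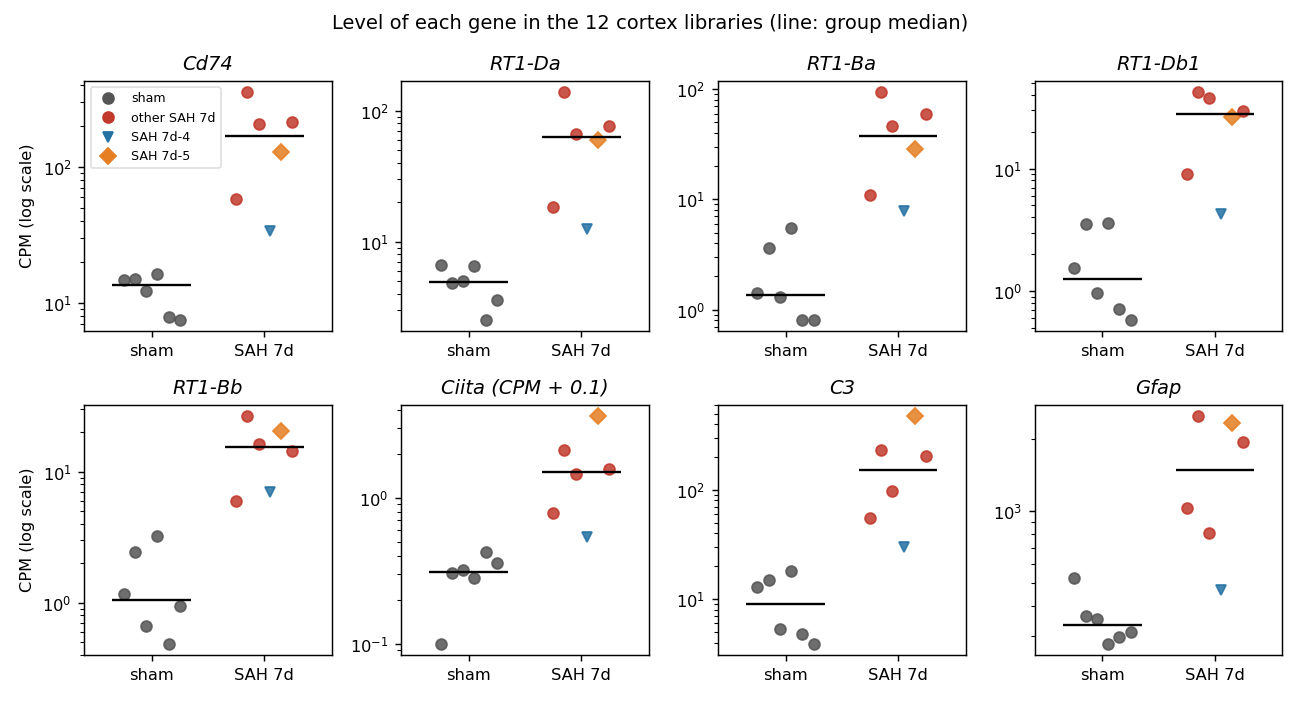
CPM on a log scale of 8 genes in the 6 sham and 6 SAH 7d libraries, with 1 point per library and a line at each group median; for Ciita 0.1 CPM was added. Every SAH 7d point lies above every sham point in 7 of the 8 panels, Gfap in SAH 7d-4 (466 CPM) being the exception, and SAH 7d-5 is not the highest library for Cd74, RT1-Da, RT1-Ba, RT1-Db1 or RT1-Bb.

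SAH 7d-5 was not the highest library for most of the separated class II genes. For 17 of the 142 separated higher genes another library was the highest, and 5 of these 17 were Cd74, RT1-Da, RT1-Ba, RT1-Bb and RT1-Db1, in each of which it was SAH 7d-2. Without SAH 7d-5 the list's median log2 ratio was 3.66, close to the 3.63 with it, whereas the median of the phagocytic microglia list went from 0.95 to 0.62 and that of the complement list from 1.19 to 0.75. SAH 7d-4 carried the smallest class II change, with a median log2 ratio of 1.31 over the list, and this was its largest change among the lists of the plot by library.

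Complement genes were higher as a group, with 13 of 20 tested members separated or mostly separated (against 3.46%), 4 of them separated, and a median log2 ratio of 1.19. C3, the central protein of the cascade, ranged from 3.92 to 18 CPM in sham (median 9.08) and from 29.7 to 474 CPM in SAH 7d (median 151). SAH 7d-5 was the highest and SAH 7d-4 the lowest of the group, and no SAH 7d library reached the sham range. The edgeR log2 fold change of C3 was 4.19 ± 0.69 (SE, adjusted p = 0.148), and the DESeq2 adjusted p without SAH 7d-5 was 8.06e-06. Serping1, which inhibits the C1 complex, was separated, at 9.35 to 17.3 CPM (median 11.6) in sham and 17.6 to 321 CPM (median 43.1) in SAH 7d. C1qa, a chain of the molecule that starts the classical pathway, had medians of 54.6 and 107 CPM, and C2, a protease of that pathway, 17.9 and 54.7 CPM, and both overlapped sham only through SAH 7d-4.

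Among the complement receptors, the medians of the integrins that bind C3 fragments differed, while the lowest SAH 7d libraries lay close to or inside the sham range. Itgb2, the shared beta chain, ranged from 7.16 to 9.78 CPM in sham (median 8.62) and from 11.3 to 460 CPM in SAH 7d (median 46.8). Itgam, an alpha chain and a marker of microglia and myeloid cells, ranged from 6.83 to 11.7 CPM in sham (median 9.17) and from 7.40 to 368 CPM in SAH 7d (median 59.7), with SAH 7d-4 inside the sham range. Itgax, the alpha chain of another such receptor, was at 0 to 0.270 CPM in sham and 0.335 to 16.9 CPM in SAH 7d. Of the 20 members, the DESeq2 test called 10 higher with all libraries (against 2.24% of all genes) and 12 without SAH 7d-5 (against 2.55%), and 0 lower in both.

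Genes of phagocytic microglia were higher in SAH 7d, least in SAH 7d-4. Of 19 tested members 11 were separated or mostly separated and higher (3.46% of all genes), 4 of them separated (0.8%), and 0 were separated or mostly separated and lower. Clec7a, a receptor for fungal and debris glycans that microglia switch on when they phagocytose, ranged from 0.0971 to 0.324 CPM in sham and from 0.536 to 284 CPM in SAH 7d. Its SAH 7d median was 4.4 CPM and the second highest library held 15.1 CPM, so SAH 7d-5 alone was far from the rest. Gpnmb, a glycoprotein of lipid-laden macrophages, ranged from 6.23 to 11.3 CPM in sham and from 15.2 CPM to 114 CPM in 5 SAH 7d libraries, with 4503 CPM in SAH 7d-5. Cd68, a membrane protein of the lysosome, had medians of 1.71 and 10.3 CPM, and SAH 7d-4 with 1.88 CPM lay inside the sham range of 1.04 to 1.99 CPM. DESeq2 without SAH 7d-5 gave adjusted p-values of 1.31e-05 for Clec7a, 0.00103 for Gpnmb and 0.000391 for Cd68, against an edgeR adjusted p of 0.218 for each.

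Microglial identity genes were higher too, with fewer separated members. In the homeostatic microglia list 5 of 14 tested members were separated or mostly separated and higher (against 3.46%), 1 of them separated, and all 14 had a higher median in SAH 7d (median log2 ratio 1.03). Csf1r, the receptor for the survival factor of microglia, ranged from 90.2 to 170 CPM in sham (median 104) and from 127 to 1282 CPM in SAH 7d (median 261), with SAH 7d-4 overlapping. Trem2, a lipid-sensing receptor, had medians of 8.34 and 25.3 CPM, and the groups overlapped through SAH 7d-4, whose 7.84 CPM was below every sham library. Summed over the 15 list genes in the file, the level was 365 to 636 CPM in sham (median 409) and 438 to 3668 CPM in SAH 7d (median 894).

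Lysosomal and pattern-recognition genes followed. Cd68, Ctsb, Ctsd and Ctsz count in both the lysosome and the phagocytic microglia lists. Itgax counts in the phagocytic microglia and complement lists, Trem2 in both microglia lists and Itgam in the homeostatic microglia and complement lists. The counts of these lists thus partly repeat the same genes. Of 25 lysosomal genes 13 were separated or mostly separated and higher (against 3.46%), with a median log2 ratio of 0.74, and Lyz2, lysozyme of macrophages, was the 1 separated member. Lyz2 ranged from 38.2 to 61.9 CPM in sham and from 67.4 to 207 CPM in 5 SAH 7d libraries, with 7929 CPM in SAH 7d-5. Ctse, an aspartic protease of antigen-presenting cells, had medians of 0.962 and 4.73 CPM and was mostly separated. Of 21 Toll-like receptor and NF-kB genes 10 were separated or mostly separated and higher, and Tlr1, a partner of TLR2, was separated at 0.0647 to 0.745 CPM in sham against 0.770 to 10.2 CPM in SAH 7d. Fcgr2b, the inhibitory receptor for antibody, was separated at 3.47 to 7.70 CPM against 8.71 to 161 CPM. The DESeq2 test without SAH 7d-5 called 12 of the 25 lysosomal genes and 9 of the 21 receptor genes higher (against 2.55% of all genes), and 0 of either list lower.

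Among the other large separated increases several genes are known from immune cells. St14, a membrane serine protease, had medians of 0.762 CPM in sham and 6.69 CPM in SAH 7d. Rgs1, a brake on chemokine receptor signalling, had medians of 0.656 and 4.44 CPM, and Clec5a, a myeloid lectin that signals through TYROBP, 0.405 and 3.44 CPM. Gpr31, a receptor for a lipid mediator, had medians of 0.247 and 2.34 CPM, and Slamf9, a receptor of myeloid cells, 0.305 and 2.28 CPM. DESeq2 without SAH 7d-5 called all 5 higher, with adjusted p-values from 1.46e-05 for St14 to 0.0154 for Slamf9. In edgeR with all 12 libraries the adjusted p was 0.218 for each of the 5. The 5 were chosen for their separation in these same libraries, so these p-values are no independent evidence. These 5 genes, Clec7a, C3, Itgb2, Itgax and the 5 class II genes named above are the 14 largest separated increases among genes with a symbol and at least 1 CPM.

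**Figure D2:**
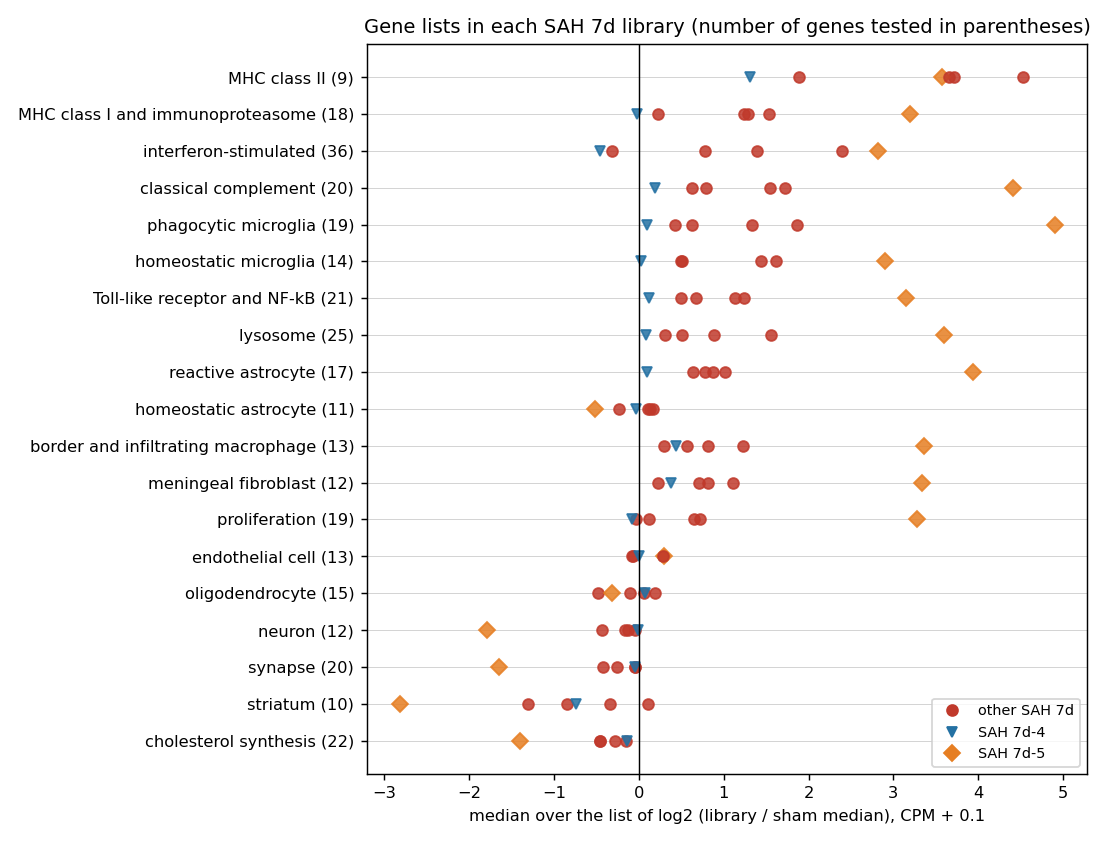
Median over each gene list of the log2 ratio of a SAH 7d library to the sham median, with 1 point per library and the number of genes tested in parentheses. SAH 7d-5 (diamond) is the highest library for most immune lists and the lowest for the neuron (-1.79), synapse, striatum and cholesterol synthesis lists, SAH 7d-4 (triangle) lies near 0 for most lists, and only the MHC class II list has all 6 libraries above 1.

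Markers of other cells were checked beside these counts, and their part in the results was not tested. Of 13 border and infiltrating macrophage genes 1 was mostly separated and higher (against 3.46% of all genes). Their summed level was 72.5 to 132 CPM in sham and 102 to 925 CPM in SAH 7d. Of 12 neutrophil genes 2 passed the count filter, and 1 of these 2, Csf3r, was mostly separated and higher. Ltf was at 0 in all 12 libraries, and the summed level of the list was 7.16 to 12.0 CPM in sham and 6.60 to 226 CPM in SAH 7d. Of 18 T and NK cell genes 4 passed, 0 of them separated or mostly separated, with sums of 9.74 to 14.7 CPM and 11.3 to 386 CPM. Of 8 B cell genes 2 passed, with sums of 6.21 to 8.77 CPM and 9.14 to 137 CPM. Most of the B cell sum was Blnk, an adaptor of B cell receptor signalling that myeloid cells also express, and Blnk was separated and higher. The highest SAH 7d sum was in SAH 7d-5 in each of these lists. Meningeal fibroblast genes had a median log2 ratio of 0.77 and 1 of 12 was mostly separated, with sums of 330 to 779 CPM and 522 to 5651 CPM. Red cell genes, of which 3 of 10 passed the filter, had sums of 13.1 to 107 CPM in sham and 1.68 to 64.5 CPM in SAH 7d, so the groups overlapped. Proliferation genes had a median log2 ratio of 0.39, and 0 of 19 were separated or mostly separated.

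Interferon-stimulated and MHC class I genes showed a higher median without separation. The median log2 ratio of 36 interferon-stimulated genes was 1.08 and all 36 medians were higher in SAH 7d, yet 0 were separated or mostly separated in either direction. By library the list's median log2 ratio to sham ran from -0.46 in SAH 7d-4 and -0.31 in SAH 7d-3 to 2.40 in SAH 7d-1 and 2.81 in SAH 7d-5. Mx2, an antiviral GTPase, shows the spread within sham, with 177 and 174 CPM in sham-2 and sham-4 and 22.1 to 38.7 CPM in the other 4 sham libraries. In SAH 7d Mx2 ranged from 23.4 to 240 CPM, and the edgeR adjusted p was 0.778. Of 18 class I and immunoproteasome genes 2 were mostly separated and higher (against 3.46%), RT1-A2 and RT1-CE5, and 13 were higher at an unadjusted edgeR p under 0.05 (against 11.7%). These class I genes are near-identical copies whose reads the counting could split, so the values of single copies are uncertain.

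Reactive astrocyte genes were higher, while homeostatic astrocyte genes were not. Of 17 tested members of the reactive list 6 were separated or mostly separated and higher (against 3.46%), with a median log2 ratio of 1.05, and of 11 homeostatic genes 0 were (median log2 ratio 0.04). Gfap, the intermediate filament that marks reactive astrocytes, ranged from 279 to 525 CPM in sham (median 332) and from 466 to 2500.0 CPM in SAH 7d (median 1489). Only SAH 7d-4 overlapped sham, and its 466 CPM lay below sham-1 alone. The edgeR log2 fold change of Gfap was 2.10 ± 0.38 (SE, adjusted p = 0.193), and the DESeq2 adjusted p without SAH 7d-5 was 0.000536. Vim, the filament vimentin, was separated at 67.3 to 125 CPM against 137 to 1635 CPM, and Timp1, an inhibitor of matrix proteases, at 1.42 to 3.47 CPM against 3.48 to 60.9 CPM. For Timp1 the lowest SAH 7d library and the highest sham library were nearly equal.

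Some separated genes showed little spread in either group. Gadd45b, a stress-induced regulator of DNA demethylation and MAP kinase signalling, ranged from 8.47 to 10.3 CPM in sham and from 12.8 to 19.2 CPM in SAH 7d. Its medians differed 1.5-fold, and the edgeR log2 fold change was 0.68 ± 0.11 (SE, adjusted p = 0.148). Zfp512b, a zinc finger gene, ranged from 41.2 to 46.3 CPM in sham and from 32.4 to 36.6 CPM in SAH 7d, and SAH 7d-5 with 34.0 CPM was not apart from the other libraries. The edgeR log2 fold change of Zfp512b was -0.35 ± 0.06 (SE, adjusted p = 0.148), and the DESeq2 adjusted p without SAH 7d-5 was 6.73e-06. Psmg3, a chaperone of proteasome assembly, was likewise separated and lower, at 18.3 to 29.5 CPM in sham and 14.4 to 16.5 CPM in SAH 7d.

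Cholesterol synthesis was the list with most members lower. Of 22 tested members 12 were separated or mostly separated and lower (against 2.25% of all genes), 3 of them separated (0.439%), and 0 were higher. Of the 22, 21 had a lower median in SAH 7d, and the list's median log2 ratio was -0.37, or -0.28 without SAH 7d-5. On the FPKM scale of the authors 7 of the 22 were separated or mostly separated and lower, and the median log2 ratio was -0.33, so the direction held and the count fell. DESeq2 called 1 of the 22 lower with all libraries (against 0.318% of all genes) and 7 without SAH 7d-5 (against 0.676%).

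Insig1, which holds the sterol sensor in the endoplasmic reticulum, ranged from 109 to 132 CPM in sham (median 118) and from 36.0 to 105 CPM in SAH 7d (median 83.1). Its groups did not overlap on any of the 4 scalings, and the DESeq2 adjusted p without SAH 7d-5 was 0.00425, against an edgeR adjusted p of 0.263. Hmgcs1, the enzyme that feeds the mevalonate pathway, ranged from 450 to 644 CPM in sham (median 472) and from 77.8 to 433 CPM in SAH 7d (median 364), its DESeq2 adjusted p was 0.0217 without SAH 7d-5 and 0.278 with all libraries, and on the FPKM scale 5 of 6 libraries lay below sham. Cyp51, which removes a methyl group from lanosterol, ranged from 239 to 356 CPM (median 252) and from 71.9 to 238 CPM (median 185), and with DESeq2 size factors or FPKM 5 of 6 libraries lay below sham. In all 3 genes SAH 7d-5 held the lowest value, and the other 5 libraries lay nearer to sham. The promoters of Hmgcs1 and Insig1 are shown for the CCAAT boxes, in capitals (ATTGG where the box is on the opposite strand), that this list shares with many others, as the 250 bases before the start from RefSeq on GRCr8:
Hmgcs1, chr2:53382054-53382303 (+ strand): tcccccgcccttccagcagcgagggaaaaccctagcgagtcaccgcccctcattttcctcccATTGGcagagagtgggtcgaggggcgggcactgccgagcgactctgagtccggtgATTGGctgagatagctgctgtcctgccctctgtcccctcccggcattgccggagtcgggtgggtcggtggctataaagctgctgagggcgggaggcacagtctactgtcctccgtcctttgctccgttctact
Insig1, chr4:8057770-8058019 (- strand): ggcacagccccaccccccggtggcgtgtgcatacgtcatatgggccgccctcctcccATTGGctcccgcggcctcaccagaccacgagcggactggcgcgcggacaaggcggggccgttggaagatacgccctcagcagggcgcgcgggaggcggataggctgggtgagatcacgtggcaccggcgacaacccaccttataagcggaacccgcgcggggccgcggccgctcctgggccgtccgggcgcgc

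Of the 23 listed genes 16 matched an entry in the promoter table, and CCAAT occurred on either strand in 14 of the 16 and in 34.0% of all promoters. The sterol-response motif TCACNCCAC, searched on both strands, occurred in 0 of the 16 windows and in 0.974% of all promoters, which says only that these letters are not in those 250 bases. Genes of cholesterol efflux and lipid storage went the other way, with 6 of 15 separated or mostly separated and higher (against 3.46% of all genes) and 0 lower (2.25%). Ch25h, which makes 25-hydroxycholesterol, had medians of 2.82 CPM in sham and 6.49 CPM in SAH 7d, and Plin3, a coat protein of lipid droplets, was separated with medians of 2.14 and 3.52 CPM.

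**Figure D3:**
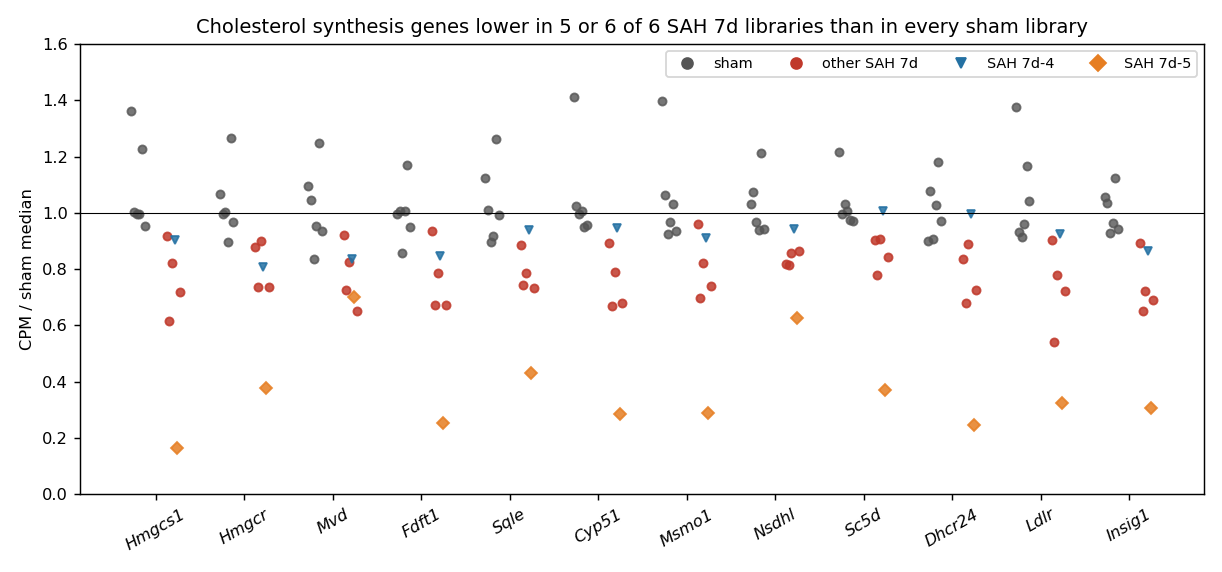
CPM divided by the sham median (linear axis from 0) of the 12 cholesterol synthesis genes that 5 or 6 of 6 SAH 7d libraries held below every sham library, with 1 point per library. SAH 7d-5 (diamond) is the lowest library for all but Mvd and SAH 7d-4 (triangle) lies near sham, and for Hmgcs1, Cyp51 and Insig1 no SAH 7d point reaches a sham point.

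The other separated lower genes named here had small ratios, while 4 of all 78 separated lower genes differed at least 2-fold. Slco1c1, the thyroxine transporter of brain capillaries and astrocytes, ranged from 119 to 219 CPM in sham (median 132) and from 70.2 to 109 CPM in SAH 7d (median 94.9), and its DESeq2 adjusted p without SAH 7d-5 was 0.00973. Car4, a membrane-bound carbonic anhydrase, ranged from 23.1 to 38.9 CPM and from 6.17 to 21.9 CPM, with the largest log2 ratio of the named lower genes, -0.73. Cacna2d3, a subunit of voltage-gated calcium channels, ranged from 159 to 199 CPM and from 49.3 to 158 CPM. Btbd17, Tspy26 and Rpp38, a subunit of ribonuclease P, had log2 ratios of -0.48, -0.47 and -0.43. Of the 10 largest separated decreases among genes with a symbol, which also hold Insig1, Psmg3 and Cyp51, 6 stayed separated on the FPKM scale, whereas all 14 of the largest increases did.

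Cytokine genes were higher in part, with 6 of 13 tested members separated or mostly separated and higher (against 3.46% of all genes) and 0 lower (2.25%). Il18, a cytokine that the inflammasome activates, ranged from 1.56 to 3.63 CPM in sham and from 2.98 to 47.0 CPM in SAH 7d, with SAH 7d-4 inside the sham range. Stat3, a transcription factor that relays cytokine signals in astrocytes and microglia, was separated, at 56.6 to 65.3 CPM in sham and 66.7 to 198 CPM in SAH 7d, and its DESeq2 adjusted p was 0.00169 without SAH 7d-5 and 0.145 with all libraries. Of 15 tested chemokine genes 1 was mostly separated and higher, and of 16 Fc and efferocytosis receptor genes 2 were separated or mostly separated and higher (against 3.46%). Havcr2, the checkpoint receptor TIM-3 that microglia express, ranged from 3.60 to 6.80 CPM in sham and from 6.36 to 46.3 CPM in SAH 7d with SAH 7d-4 inside the sham range, and its DESeq2 adjusted p without SAH 7d-5 was 0.000299. Slc2a5, the fructose transporter of microglia, was the separated member of the homeostatic list, at 5.01 to 7.03 CPM against 7.53 to 53.9 CPM.

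The stress, hypoxia and metabolic lists that follow held 0 to 3 separated or mostly separated genes each. Over all genes 3.46% were separated or mostly separated and higher, and 2.25% lower. Of 14 heat shock genes 2 were mostly separated and higher, Hspa1a and Hspa5, both chaperones. Hspa1a ranged from 0.0325 to 3.35 CPM in sham and from 3.23 to 24.9 CPM in SAH 7d, with sham-1, sham-3 and sham-5 under 0.1 CPM and the other 3 sham libraries above 2 CPM (edgeR adjusted p = 0.236). Of 19 immediate early genes 2 were mostly separated and higher, and of 17 hypoxia genes 1 was, Hk2, the hexokinase that feeds glycolysis, at 6.23 to 11.6 CPM in sham and 10.1 to 100.3 CPM in SAH 7d. Vegfa, the vascular growth factor, was mostly separated and lower, at 53.3 to 69.4 CPM against 25.5 to 68.0 CPM, with SAH 7d-4 inside the sham range. Of 22 oxidative phosphorylation genes 1 was mostly separated and lower, and of 20 glucocorticoid and clock genes 0 were in either direction. Of 18 haem and iron genes 2 were higher, Hmox1 and Lcn2, and of 16 NRF2 target genes 3 were. In 2 lists taken from the study, which were chosen on these samples and are no independent evidence, 6 of 14 tested hub genes and 6 of 46 pathway genes were separated or mostly separated and higher.

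Vessel and matrix lists overlapped in most members, and over all genes 3.46% were separated or mostly separated and higher and 2.25% lower. Of 13 endothelial genes 1 was mostly separated and higher, and 0 were with DESeq2 size factors. Of 12 mural cell genes 0 were, and of 8 oligodendrocyte progenitor genes 0 were. Of 32 collagen, laminin and matrix genes 3 were separated or mostly separated and higher, and of 17 coagulation and fibrinolysis genes 3 were higher and 1 lower. Aqp1, the water channel of the choroid plexus, was separated, at 2.56 to 6.51 CPM in sham and 7.70 to 24.7 CPM in SAH 7d, and was the only member of the 7 tested choroid plexus and ependyma genes to be separated or mostly separated.

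Neuronal genes were slightly lower without separation, apart from a few synaptic genes. Of 12 neuron genes 0 were separated or mostly separated, and all 12 medians were lower in SAH 7d, with a median log2 ratio of -0.18, and 0 of 12 interneuron and 0 of 11 cortical layer genes were. Of 20 synapse genes 4 were separated or mostly separated and lower (2.25% of all genes), and 2 were on the FPKM scale. Stx1a, a syntaxin of vesicle fusion, ranged from 274 to 322 CPM in sham and from 74.9 to 261 CPM in SAH 7d, and its DESeq2 adjusted p was 0.00266 without SAH 7d-5 and 0.29 with all libraries. In edgeR the adjusted p of Stx1a was 0.329, and on the FPKM scale 4 of 6 libraries lay below sham. Dlg4, the scaffold PSD-95, ranged from 694 to 783 CPM and from 204 to 688 CPM, so the groups were barely apart (edgeR adjusted p = 0.41), and on the FPKM scale 5 of 6 libraries lay below sham. Genes of the striatum, used as a check of the dissection, had sums of 406 to 1734 CPM in sham and 151 to 1047 CPM in SAH 7d. Of these 10 genes 0 were separated or mostly separated, yet all 10 medians were lower in SAH 7d. Their median log2 ratio was -0.74, or -0.60 without SAH 7d-5. At an unadjusted edgeR p under 0.05, 3 of the 10 were lower (against 3.69% of all genes). The part of the dissection in the neuronal values was not tested. Oligodendrocyte genes overlapped, with 0 of 15 separated or mostly separated and a median log2 ratio of -0.05.

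The FPKM values of the SAH 1d group, taken 1 day after the bleed, give these genes a place in time. They are set beside the values at 7 days as levels, since both SAH groups share the sham group, and no comparison between them was tested. The SAH 1d group was left out of the main fit because 1 of its libraries stood apart. The median FPKM of Cd74 was 11 in sham, 18.9 in SAH 1d and 149 in SAH 7d, and that of RT1-Da was 3.98, 4.33 and 52.4. For C3 it was 1.6, 10.7 and 28.8. For Gfap it was 116 in sham, 1063 in SAH 1d and 530 in SAH 7d, for Timp1 2.90, 67.5 and 7.77, and for Hmox1, the enzyme that breaks down haem, 3.56, 50.2 and 6.77. Hmox1 was separated at 7 days, with 4.34 to 7.06 CPM in sham and 7.40 to 236 CPM in SAH 7d. For Insig1 the median FPKM was 45.8, 34.9 and 33.6, and for Slco1c1 46.7, 36.6 and 33.6. Within SAH 1d the FPKM ranged from 30.5 to 99.3 for Insig1, from 5.68 to 40.2 for Slco1c1 and from 40.2 to 854 for Timp1. The SAH 1d libraries held 16.2 to 30.4 FPKM of Cd74 and 3.93 to 13.3 FPKM of RT1-Da, against 29.9 to 312 and 10.1 to 113 FPKM at 7 days, whereas the medians of Gfap, Timp1 and Hmox1 were higher at day 1 than at day 7.

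**Figure D4:**
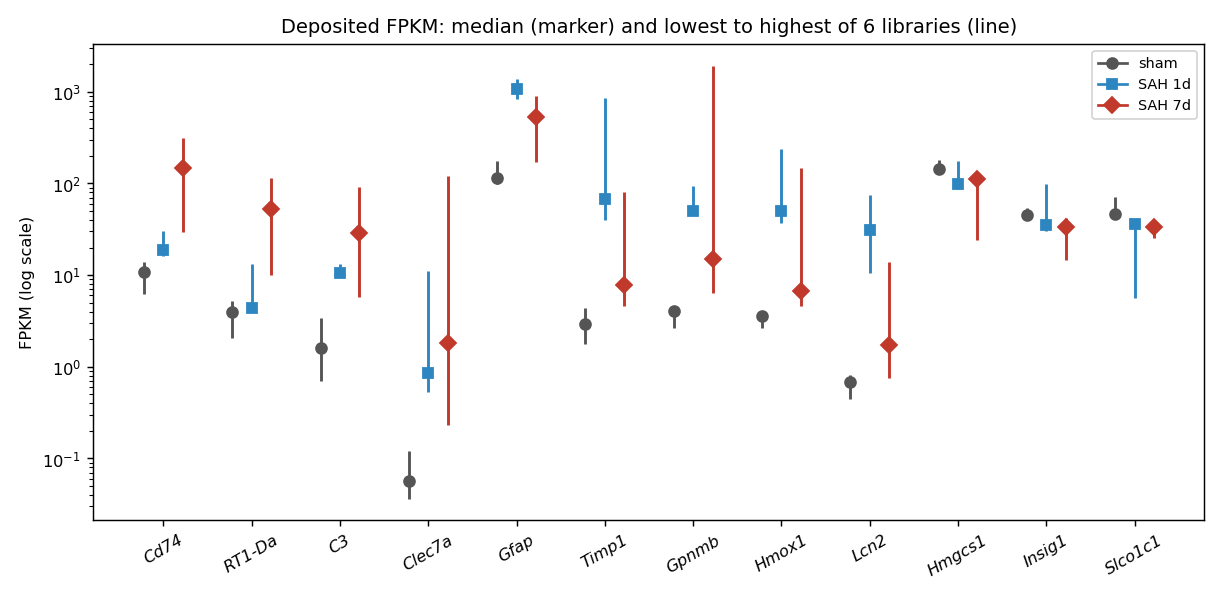
FPKM on a log scale of 12 genes in sham rats and in SAH rats at day 1 and day 7, with a marker at the median and a line from the lowest to the highest of 6 libraries. Cd74, RT1-Da, C3 and Clec7a have their highest median in SAH 7d, Gfap, Timp1, Gpnmb, Hmox1 and Lcn2 in SAH 1d, and Hmgcs1, Insig1 and Slco1c1 in sham.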

How the data were processed

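Total RNA of 18 rat cortex samples was sequenced by the study on an Illumina HiSeq2500 after NEBNext Ultra library preparation. The authors deposited raw read counts per gene and FPKM values, with gene identifiers of the rat annotation and unannotated loci named NewGene. Per the labels, reads were trimmed with fastp and aligned with HISAT2, DESeq2 1.16.1 was used, and the build is given as mm9, a mouse build, whereas the study's methods name the rat genome Rnor_6.0 and the gene identifiers are rat identifiers. The sources used here do not name the counting tool or its strand setting, so overlapping genes and near-identical copies are uncertain. The deposited counts were used as they are, and the deposited FPKM values served for levels and as an alternative scale.

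The 6 SAH 7d and 6 sham libraries, which per the methods are separate rats, were fitted with the edgeR 4.0.16 quasi-likelihood test in R 4.3.3, with TMM factors, filterByExpr and Benjamini-Hochberg adjustment at 0.05. Separation counts, an exact rank-sum permutation test and ratios of medians with 0.1 CPM added were computed from TMM-scaled CPM. Alternatives were DESeq2 1.42.0, limma 3.58.1 voom, robust and 18-library fits, other factors and filters, a replicate block and leaving out each library. The DESeq2 fit without SAH 7d-5 was added after the data were seen. The scripts were tested on simulated data. Replicate numbers did not pair the samples, since the deviations of same-numbered libraries correlated at -0.236 to 0.103 and 1 of 6 had its own number as best partner. All 43 gene lists and the rules were chosen with earlier results of these data known. Some genes are in several lists, so the counts of different lists are not independent.

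The genes named were the 14 largest increases and 10 largest decreases among separated genes with a symbol and a mean of at least 1 CPM in the higher group, up to 4 separated or mostly separated genes per list or, where a list had none, up to 2 with the highest mean CPM, and the 6 smallest edgeR p-values. Ciita, RT1-DMa, RT1-DMb, RT1-DOb, Serping1, C1qa, C2, Lyz2, Vim, Hmgcs1, Mvd, Havcr2, Stat3, Slc2a5 and Ltf fall outside this rule and were chosen after their values were seen. One gene that the rule names is not reported here. Promoter sequences were read from a RefSeq table on GRCr8, a later build than Rnor_6.0, and matched by symbol. Total counts of 27641629 to 33325330 per library set the precision of low genes.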

Additional observations from a re-analysis of the deposited data

Results flagged for a closer look

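Among 118 groups of 6 libraries, for the genes given with values, 38 held a library whose gap to its nearest neighbour exceeded 0.625 of the group's range, Dixon's 95% critical value, which chance passes in about 1 of 20 groups. SAH 7d-5 was that library in 32 of the 38, sham-1 in 4, and sham-2 and sham-4 in 1 each.

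For Cd74 and the classical class II chains named above the highest library was SAH 7d-2. SAH 7d-5 was far above the other SAH 7d libraries for genes of microglia and macrophages and for RT1-DMa and RT1-DMb. It held 7929 CPM of Lyz2 (next highest library 207), 4503 CPM of Gpnmb (114), 1282 CPM of Csf1r (437), 1168 CPM of C1qa (153), 552 CPM of Cd68 (33.3), 460 CPM of Itgb2 (94.5) and 444 CPM of C2 (73.5). It also held 368 CPM of Itgam, 321 CPM of Serping1, 284 CPM of Clec7a, 252 CPM of Trem2, 161 CPM of Fcgr2b, 123 CPM of RT1-DMb and 77.0 CPM of RT1-DMa. For the low genes it held 66.9 CPM of Slamf9, 57.6 CPM of St14, 47.0 CPM of Il18, 35.7 CPM of Rgs1, 17.8 CPM of Clec5a, 16.9 CPM of Itgax and 10.2 CPM of Tlr1.

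The same library was high for genes of astrocytes, lipid handling and stress, with 1635 CPM of Vim, 236 CPM of Hmox1, 198 CPM of Stat3, 100.3 CPM of Hk2, 60.9 CPM of Timp1, 26.1 CPM of Ch25h, 24.7 CPM of Aqp1 and 24.3 CPM of Plin3. It was far below the others for Dlg4, at 204 CPM against 541 CPM in the next lowest library, for Stx1a at 74.9 against 211 CPM, and for Tspy26 at 7.91 against 13.6 CPM.

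Among the sham libraries, sham-1 was the highest for Dlg4 (783 CPM), Gfap (525 CPM), Cyp51 (356 CPM) and Csf1r (170 CPM), sham-2 for Ctse (1.96 CPM) and sham-4 for St14 (1.93 CPM).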

How the results depend on the processing

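With each library left out in turn, edgeR called 0 to 6 genes, the 6 without SAH 7d-4, and separated genes numbered 154 to 421 higher and 95 to 233 lower, with 675 to 1263 higher and 485 to 951 lower when 1 overlapping library was allowed. Fewer libraries make separation easier by construction, and the largest counts came without SAH 7d-4 (421 and 191 separated) and without sham-1 (375 and 233). CPM of total counts gave 255 separated higher and 40 lower, and 950 and 196 with the mostly separated, and FPKM gave 250, 40, 953 and 190. DESeq2 called 443 genes, or 539 without SAH 7d-5, and edgeR with all 18 libraries called 9. The other edgeR fits called 0, and the rank-sum test called 0 in every setting. The replicate block called 0 genes, with 969 higher and 583 lower at an unadjusted p under 0.05, and the replicate numbers share no more than a number, with 1 of 6 SAH 7d libraries closest to its own number. Of 114 named genes, 6 changed the sign of a fitted log2 fold change near 0. Snap25 (-0.20) came to 0.000301 with DESeq2 without SAH 7d-5 and to between -0.29 and 0.0031 without single libraries, the highest without SAH 7d-5. Etv1 (-0.11) came to 0.30 with voom, 0.0044 with the block and -0.31 to 0.00015 without single libraries. Hbb (-0.36) came to -0.58 to 0.0171 without single libraries, the highest without sham-4. Mbp (-0.02) came to 0.0562 with DESeq2 without SAH 7d-5, 0.13 with voom, 0.0117 with the block and -0.16 to 0.12 without single libraries. Mx2 (0.36) came to -0.0542 with voom and -0.10 to 0.76 without single libraries, the lowest without SAH 7d-1. Tef (-0.01) came to 0.0887 with DESeq2 without SAH 7d-5, 0.050 with voom and -0.0521 to 0.0919 without single libraries. The causes were not tested.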
